A study of Mus musculus with 28 samples.

Results

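The replication-dependent histone genes were followed in Treg cells of mice carrying CT2A glioblastoma (GBM), measured by bulk RNA-seq after sorting. Members were all features whose symbol begins with Hist1h to Hist4h followed by a class, H1, H2A, H2B, H3 or H4. Of 53801 features, 70 were members, and 67 of them had a TPM above 1 in at least 3 of 27 libraries and are reported. These 67 comprise 5 H1, 18 H2A, 19 H2B, 12 H3 and 13 H4 genes. TPM is a level per transcript length, and every library adds up to a common total.

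Treg cells were sorted as TCR+CD4+CD25hi CD127lo cells, with CD8 T cells dumped, from CT2A tumors grown in the forebrain or from spleens of C57BL/6 mice. Once tumors reached 2 mm3, mice received 4 doses of 250 µg, every 3 days, of either IgG2a (isotype control) or αPD1 + αGITR, and organs were taken 2 days after the last dose. Splenic Treg cells gave 7 IgG2a and 8 αPD1 + αGITR libraries, and GBM Treg cells gave 5 and 7. CT2A is a single murine glioma cell line, the mice were otherwise not engineered as far as the labels say, and the spleens in both arms came from tumor-bearing animals. The spleen libraries outnumber the animals that the study names for each arm. Among them, 4 IgG2a spleens carry the label number 79, 3 treated spleens the number 70, and 72_b and 72_c the number 72. Some spleen libraries may therefore come from the same animal, and p-values of comparisons with spleens are then too small. In treated GBM, 70_a and 70_b share a number, as do 73_a and 73_b. The labels do not say whether these share an animal, and if they do, p-values in GBM are too small as well. The labels do not say how many cells went into each library, so the spread between libraries includes that of small inputs. How many reads lie behind a value is unknown, so a TPM of 0 cannot be told from a low level.

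Histone proteins package DNA into nucleosomes. H2A, H2B, H3 and H4 form the core around which DNA is wrapped, and H1 binds the linker DNA between cores. The genes studied here lie in clusters, have no introns in their coding parts and are transcribed mainly in S phase, when new DNA has to be packaged. Their mRNAs are unusual because they normally end in a short stem-loop, bound by the protein SLBP (Slbp), and not in a poly(A) tail. In proliferating lymphocytes their level is therefore a sign of cells in S phase, whereas the libraries used here were primed from poly(A) and catch such mRNAs only in part. What fraction of each member's RNA was caught was not measured.

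The stem-loop is the sequence that sets these mRNAs apart, so its forms are shown. In the GENCODE M21 transcripts (GRCm38), 52 members had 30 or more bases annotated after the stop codon. In 44 of these 52 members those bases held a stem of 6 base pairs closed over a loop of 4 bases, in the 6 forms below. Capitals mark the paired stem and lower case the loop.
Form in 26 members, among them Hist1h2ap, Hist1h2ab and Hist2h3c2: GGCUCUuuucAGAGCC
Form in 7 members: GGCCCUuuucAGGGCC
Form in 6 members: GGCUCUuuuaAGAGCC
Form in 2 members, among them Hist1h4i: GGCCCUuuuuAGGGCC
Form in 2 members: GGUCCUuuucAGGACC
Form in 1 member: GGCUCUuuuuAGAGCC

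The polyadenylation signal AATAAA was found after the stop codon of 19 of the 52 members. A run of 10 or more A lay in the transcripts of 4 members, and the longest run in the other 66 was 8. These runs had 15 bases in Hist1h2ac, 12 in Hist1h2ao, 12 in Hist1h2ap and 11 in Hist1h2be. In Hist1h2ap the run stood directly before the stem-loop, at bases 452 to 479 of a transcript of 482 bases whose stop codon ends at base 425. It is shown because Hist1h2ap was the most abundant member, with the stem in capitals.
Hist1h2ap: aaaaaaaaaaaaGGCUCUuuucAGAGCC

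Mean levels over the 27 libraries were 2462 TPM for Hist1h2ap, 1.05 TPM for Hist1h2ao, 2.65 TPM for Hist1h2ac and 2.36 TPM for Hist1h2be. The levels of Hist1h2ap and Hist1h2ao are hard to separate, since most of their sequence is shared.

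The members are near copies of each other, which limits how far their levels can be told apart. Of the 50-base stretches of a member's transcripts, a median of 45.5% occurred in no other gene of the annotation. In 36 of 70 members this share was under 50%, and in 4 members every stretch was unique. Hist1h2ap (chr13:21833026-21833507, minus strand) had 30 unique stretches of 433, or 6.93%, and shared 403 with Hist1h2ao. Hist2h3b had 0 unique stretches, Hist1h3h had 6.08%, Hist1h2ah 7.87% and Hist1h2ai 9.88%. In contrast Hist1h1b was unique throughout and Hist1h4i had 71.1% unique stretches. Reads that fit several copies were divided between them by the authors' quantification with RSEM, so single levels in the H2A and H3 classes are uncertain.

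Members lie in 4 clusters, with 56 genes on chromosome 13 (Hist1), 10 on chromosome 3 (Hist2), 3 on chromosome 11 (Hist3) and 1 on chromosome 6 (Hist4). By annotation 67 members are protein coding and 3 are pseudogenes (Hist1h2aj, Hist1h2al and Hist3h2bb.ps). Hist1h2al lies apart from the others, at chr13:51202727-51203065. The 3 members not reported were Hist1h1t, Hist1h2aa and Hist2h2ab, each above 1 TPM in 1 library. The single value above 1 of Hist2h2ab was 67.3 TPM, in a treated spleen.

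The libraries held the RNA of the sorted cells. Foxp3, the lineage factor of Treg cells, ranged from 21.5 to 440 TPM, Cd4 from 31.4 to 204 TPM and Il2ra, which encodes CD25, from 9.02 to 410 TPM, while Cd8a did not exceed 6.15 TPM. Features above 1 TPM numbered 7702 to 17460 per library. The lowest number belonged to an IgG2a GBM library, called the low-feature library below. Macrophage and microglia markers (15 genes) summed to 56.7 to 301.9 TPM in 10 of the 12 GBM libraries. They reached 6082 TPM in the IgG2a library 79_a, called the macrophage-rich library below, and 2348 TPM in the treated library 73_a. In the comparison of treatments in GBM, 0 of 11 tested genes of that list were past the threshold used below, where 16.8% of all features were higher and 4.87% lower. Their median log2 difference was 0.20, and it was -0.38 over 12 genes without the low-feature library and 1.21 over 8 without that and the macrophage-rich library. The part of these cells in the histone results was not tested beyond leaving out libraries. Erythroid markers (4 of 8 listed genes were in the table) summed to 1275 TPM in the treated spleen 73_a, to 0 to 269.7 TPM in the other spleens and to at most 3.75 TPM in GBM. B cell markers stayed at or below 67.02 TPM and CD8 T cell and NK cell markers at or below 65.6 TPM. Glioma and neural markers summed to 67.6 to 1168 TPM in spleens, to 582, 1505, 1695, 1856 and 2715 TPM in IgG2a GBM and to 2156 to 3002 TPM (median 2699) in treated GBM. Most of these sums was Vim, a gene that T cells also use, and their part in the histone results was not tested. Of the glial genes, Sox2 was listed at 0 in 25 libraries and Olig2 in 18, but Mbp lay between 2.87 and 131.4 TPM in GBM and between 0.62 and 26.3 TPM in spleens. Gfap reached 39.5 TPM in the macrophage-rich library and Nes 53.5 TPM in the treated GBM library 73_a. In bulk RNA, fewer cells with a transcript and less of it per cell cannot be told apart.

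The summed level of all 70 members was highest in treated GBM Treg cells. It ranged from 635 to 5255 TPM in IgG2a spleens (median 1574) and from 731 to 12879 TPM in treated spleens (median 1433). The 5 IgG2a GBM libraries held 286, 987, 2704, 2751 and 5430 TPM. Treated GBM libraries held 2357 to 10617 TPM (median 5309). All groups overlapped, and the highest sum of all, 12879 TPM, was that of the treated spleen 73_a with the high erythroid sum. The lowest, 286 TPM, was that of the low-feature library. These sums are given as a description, without a test.

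**Figure D1:**
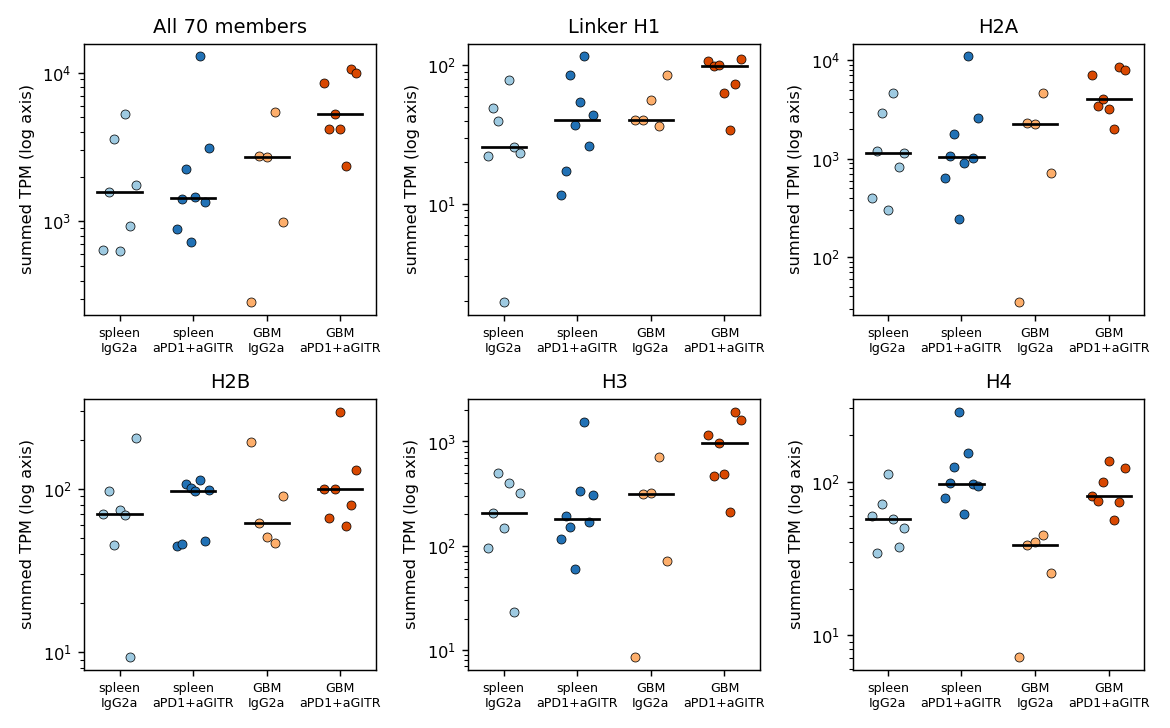
Summed TPM of all 70 members and of each histone class (log axis) in each library, by tissue and treatment, with bars at the group medians. Treated GBM libraries reached 2357 to 10617 TPM over all members, against 286 to 5430 TPM in IgG2a GBM libraries, and the groups overlap.

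By class, the medians for IgG2a spleen, treated spleen, IgG2a GBM and treated GBM were as follows. Linker H1 genes summed to medians of 25.8, 40.5, 40.7 and 98.9 TPM. H2A genes held by far the most, with medians of 1141, 1039, 2237 and 4037 TPM. H2B genes summed to 70.5, 97.8, 61.9 and 99.3 TPM, with overlapping groups and the higher median in both treated groups. H3 genes summed to 207.6, 181.4, 315 and 972 TPM. H4 genes summed to 57.0, 96.7, 38.5 and 80.5 TPM, and both treated groups again had the higher medians. The 5 IgG2a GBM libraries had H4 sums of 7.10, 25.3, 38.5, 40.1 and 44.9 TPM, all below the lowest treated GBM sum of 56.2 TPM.

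Between members the levels were very unequal. Hist1h2ap, an H2A gene, had a mean of 2462 TPM and made up 69.5% of the summed mean of all members. Next came the H3 genes Hist2h3b with 219 TPM and Hist2h3c2 with 120 TPM, and then the H2A gene Hist1h2ab with 72.4 TPM. Without Hist1h2ap, the summed level of the other members had medians of 540, 729, 746 and 1721 TPM in the 4 groups. The share of Hist1h2ap within a library's histone sum was 66.9 to 72.9% in treated GBM and more variable elsewhere, from 9.08 to 75.4% in treated spleens and from 10.7 to 74.8% in IgG2a GBM. In 14 places an H2A and an H2B gene stand head to head, 172 to 305 bases apart. The H2A gene had the higher mean in 10 of these 14 pairs. The widest gap in level was between Hist1h2ap with 2462 TPM and Hist1h2br with 9.90 TPM, whose annotated ends are 235 bases apart.

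**Figure D2:**
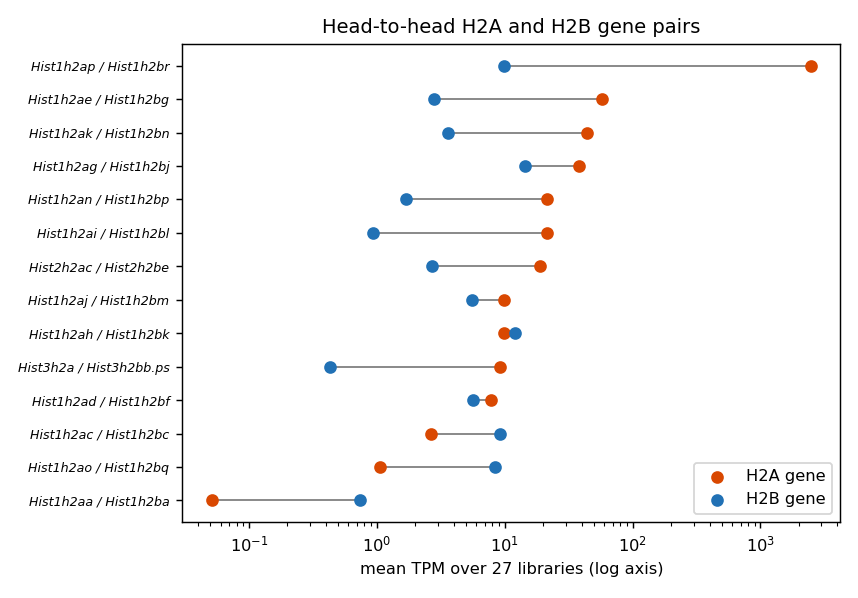
Mean TPM over 27 libraries (log axis) of the H2A gene and the H2B gene of each of 14 head-to-head pairs, joined by a line. The H2A gene is higher in 10 pairs, and the pair of Hist1h2ap (2462 TPM) and Hist1h2br (9.90 TPM) lies furthest apart.

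The stretch shared by that pair is shown because both genes start from it and yet differ in level. It covers 218 of the 235 bases, chr13:21833508-21833725 on GRCm38.p6 (RefSeq), printed 5′ to 3′ on the minus strand, toward Hist1h2ap, with CCAAT boxes of either strand in capitals.
Hist1h2ap promoter: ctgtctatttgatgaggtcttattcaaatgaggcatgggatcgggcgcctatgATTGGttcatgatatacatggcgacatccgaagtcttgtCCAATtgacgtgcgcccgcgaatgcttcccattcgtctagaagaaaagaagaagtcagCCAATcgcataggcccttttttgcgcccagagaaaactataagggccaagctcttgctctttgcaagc

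The 3 CCAAT boxes begin 165, 126 and 68 bases before the annotated start. RefSeq promoters (250 bases before to 50 after the start) could be matched for 61 members. Searched on both strands, CCAAT was present in 85.2% of the 61 promoters, against 37.4% of all 32851 promoters of the same length. It was found in all 5 H1, 18 H2A, 16 H2B and 10 H3 promoters but in 3 of 12 H4 promoters. TATAAA was present in 55.7% of members and 13.6% of all promoters. The octamer ATTTGCAT was present in 21.3% of members and 1.74% of all promoters, in 7 of 18 H2A and 6 of 16 H2B promoters and in none of the H1, H3 and H4 promoters. None of these motifs contains another, and a match is a description of letters, not a bound site.

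In GBM Treg cells, αPD1 + αGITR was compared with IgG2a. At the DEG threshold of the study (unadjusted p under 0.05 and more than 2-fold, here by limma on log2(TPM + 1)), 16 of 67 members were higher after treatment and 0 lower. Of all 28030 features with a TPM above 1 in at least 3 libraries, 5.67% were higher and 2.74% lower. The members' median difference was 0.99 on the log2 scale, against 0.06 over all features, and 56 of 67 were positive against 53.8% of all features. By class, 1 of 5 H1, 5 of 18 H2A, 1 of 19 H2B, 7 of 12 H3 and 2 of 13 H4 genes were higher. All 12 H3 genes had a positive difference, with a median of 2.14, while the median of the 19 H2B genes was 0.43.

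The main fit kept only features with a mean TPM above 10 in a compared group. It tested 31 of the 67 members, of which 16 were higher and 0 lower, where 16.8% of 7848 features were higher and 4.87% lower. A member that passed this filter only through the treated group had to differ, so the count is a description. Of those called, Hist1h1b, Hist1h2ah, Hist1h2bj, Hist1h3b, Hist1h3e and Hist1h3g passed it in this way, and their calls in this fit are a description too. In total 14 members were past the threshold in both fits, Hist1h2ai and Hist1h3b only with the main filter, and Hist1h3f and Hist1h4d only with the wider one. No member passed the adjusted threshold in the main fit, where no feature did (lowest adjusted p = 0.0947), although 1749 features had an unadjusted p under 0.05. The wider fit had 1 feature past the adjusted threshold (0.00357% of those tested), which was Hist1h2ah (adjusted p = 0.024).

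Among linker genes, Hist1h1b (H1.5) rose with treatment in GBM. The IgG2a libraries held 0, 0, 1.22, 3.52 and 15.4 TPM, and the 7 treated libraries 5.00 to 32.0 TPM with a median of 19.5. Every treated library thus held the transcript, and the groups overlap through the IgG2a library 77_a. The log2 difference was 2.56 (SE 0.80, adjusted p = 0.114, exact permutation p = 0.0101 unadjusted). Hist1h1e, the most abundant linker gene, did not pass the threshold. Its IgG2a GBM values were 22.1, 27.4, 29.3, 35.2 and 40.7 TPM, and treated values ran from 21.5 to 87.3 TPM (median 53.0).

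Among H2A genes, Hist1h2ap rose. Its 5 IgG2a GBM values were 30.7, 605, 1912, 1958 and 4062 TPM, and treated values ran from 1603 to 7594 TPM (median 3589). In 3 of 7 treated libraries the level exceeded all IgG2a libraries. The log2 difference was 2.35 (SE 0.81, adjusted p = 0.137, exact permutation p = 0.0202 unadjusted). It depended on the lowest IgG2a libraries, as it was 1.19 without the low-feature library and 0.69, no longer past the threshold, without that and the macrophage-rich library.

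Hist1h2ab showed a wider separation. It was listed at 0 in the low-feature and macrophage-rich libraries and at 40.6, 41.1 and 83.1 TPM in the others, and ran from 62.1 to 244.8 TPM (median 133.6) after treatment, above all IgG2a libraries in 5 of 7. The log2 difference was 3.61 (SE 0.96, adjusted p = 0.0977, exact permutation p = 0.00379 unadjusted), and 1.32 without both low libraries, still past the threshold. Hist1h2ak (IgG2a 0, 11.6, 37.0, 58.2 and 75.2 TPM, treated 41.8 to 146.2 TPM) and Hist1h2ae (0, 1.45, 23.4, 42.3 and 110.5 TPM, treated 32.2 to 232.5 TPM) also rose. Without those 2 libraries their log2 differences of 2.15 and 2.84 became 0.57 and 0.85 and fell under the threshold.

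Hist1h2ah (chr13:22035164-22035568, minus strand) was the only member of 67 whose groups did not overlap. The share of all features without overlap was not counted, so this is a description. It was listed at 0 in all 5 IgG2a GBM libraries and lay between 6.62 and 22.9 TPM (median 13.3) in all 7 treated libraries. The exact permutation p was 0.00126, the smallest that 5 libraries against 7 can give, and it restates this separation. No fold is given against a group listed at 0. In spleens the same gene was found at 0 to 44.9 TPM (median 8.98) after IgG2a and at 0 to 25.8 TPM (median 7.18) after treatment. Since only 7.87% of its 50-base stretches are its own, its separation from other H2A copies rests on few bases.

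**Figure D3:**
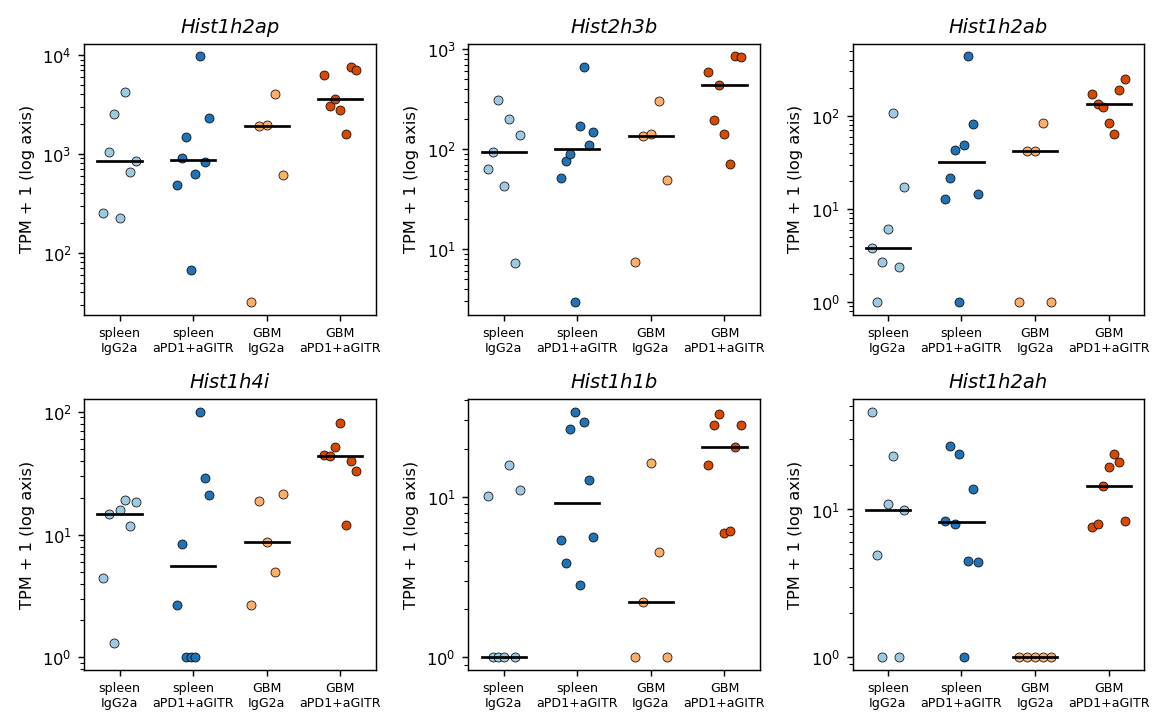
TPM + 1 (log axis) of 6 members in each library by tissue and treatment, with bars at the group medians; a value of 1 stands for a TPM of 0. Hist1h2ah is listed at 0 in all 5 IgG2a GBM libraries and lies between 6.62 and 22.9 TPM in the 7 treated ones.

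Of the H2B genes only Hist1h2bj rose in GBM. Its IgG2a values were 0, 1.55, 3.79, 6.24 and 25.2 TPM and the treated values 7.10 to 116.0 TPM (median 17.6), a log2 difference of 2.33 (SE 0.81, adjusted p = 0.142). The other abundant H2B genes were not past the threshold. Hist1h2bc was at 0.99, 1.99, 5.20, 26.2 and 88.2 TPM after IgG2a and at 0.31 to 24.4 TPM after treatment (log2 difference -1.29, SE 0.99). Its highest IgG2a values were in the low-feature and macrophage-rich libraries, the same that were lowest for Hist1h2ap. Hist1h2br, the partner of Hist1h2ap, likewise had its highest IgG2a values in those libraries (37.7 and 27.8 TPM, against 2.84 to 11.4 TPM in the others), and a log2 difference of 0.23 (SE 0.73).

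The H3 genes, whose tails carry many of the known chromatin marks, held the most calls for their number. Hist2h3b (chr3:96268654-96269141) had IgG2a values of 6.44, 48.6, 135.6, 139.7 and 299.5 TPM and treated values of 70.6 to 849 TPM (median 437), a log2 difference of 2.14 (SE 0.78, adjusted p = 0.151). Hist2h3c2 had 0, 19.9, 61.4, 84.4 and 162.8 TPM after IgG2a and 34.7 to 561 TPM (median 261.6) after treatment, a log2 difference of 2.72 (SE 0.98, adjusted p = 0.147). In both genes 4 of 7 treated libraries were above all IgG2a libraries. Without the low-feature library the difference of Hist2h3b was 1.31 and missed the threshold, and that of Hist2h3c2 was 1.51. Without it and the macrophage-rich library they were 0.85 and 0.97, both under the threshold.

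Hist1h3h was at 0, 0.41, 1.44, 38.8 and 95.1 TPM after IgG2a and at 22.4 to 156.5 TPM (median 73.3) after treatment, a log2 difference of 3.39 (SE 0.98, adjusted p = 0.1). Hist1h3i, which shares 79.3% of the 50-base stretches of Hist1h3h, was at 0, 0.41, 1.44, 7.57 and 64.8 TPM and then at 9.85 to 146.3 TPM (median 22.3), a log2 difference of 2.97 (SE 0.94, adjusted p = 0.117). Hist1h3e and Hist1h3g rose with log2 differences of 2.11 and 2.24. Hist1h3f, tested only with the wider filter, had 0, 0, 1.62, 2.33 and 2.94 TPM after IgG2a and 2.94 to 19.5 TPM after treatment.

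In the H4 class Hist1h4i rose. Its IgG2a values were 1.69, 3.92, 7.76, 17.8 and 20.4 TPM and the treated values 10.9 to 79.7 TPM (median 42.8), with 6 of 7 treated libraries above all IgG2a libraries. The log2 difference was 2.16 (SE 0.65, adjusted p = 0.106, exact permutation p = 0.00631 unadjusted), and it was 2.04 without the low-feature and macrophage-rich libraries. This gene shares fewer bases with other copies than the H3 genes above. Of the other abundant H4 genes, Hist1h4h had a log2 difference of 1.59 (SE 1.03), Hist1h4m one of 1.27 and Hist1h4n one of 0.55, none past the threshold.

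When single libraries were left out, 13 to 16 members were called higher in GBM and 0 lower, where 10.9% to 20.9% of all features were higher. Without the low-feature library alone, the members' median difference was 1.315 against 0.362 over all features. The count was 6 of 31 when the low-feature and macrophage-rich IgG2a libraries were left out together, where 11.6% of 7018 features were higher. It was 14 of 28 without the macrophage-rich library and the treated library 73_a, where 18% of 7485 features were. Both of these alternatives were chosen after seeing the data. In the former the members' median difference was 0.85 against 0.52 over all features, where the main fit gave 2.11 against 0.62. Without the low-feature and macrophage-rich libraries, Hist1h1b (1.58), Hist1h2ab, Hist1h2ah, Hist1h2bj (2.04), Hist1h3h (2.16) and Hist1h4i remained past the threshold, while Hist1h3i (2.11) missed it.

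In splenic Treg cells, whose libraries may share animals, fewer members than in GBM were past the threshold after treatment, as were fewer of all features. At the DEG threshold 4 of 67 were higher and 0 lower, where 1.46% of features were higher and 0.692% lower. The members' median log2 difference was 0.20, against 0.15 over all features. The main fit tested 33 members and found 3 higher and 0 lower (background 1.49% and 1.04%). No feature passed the adjusted threshold (limma, lowest adjusted p = 0.449), and 168 features had an unadjusted p under 0.05.

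The 3 members were Hist1h2ak, Hist1h2ab and Hist1h1b. Hist1h2ak and Hist1h1b passed the filter on means only through the treated spleens, where they are high, so their calls are a description. Their means were 9.00 and 4.88 TPM after IgG2a and 42.0 and 14.1 TPM after treatment. Hist1h2ak ranged from 0 to 29.1 TPM (median 2.62) in IgG2a spleens and from 3.15 to 153.7 TPM (median 24.2) in treated spleens, with a log2 difference of 2.66 (SE 0.87, adjusted p = 0.9997, exact permutation p = 0.018 unadjusted). Its call held whichever library was left out, under that same filter. Hist1h2ab ranged from 0 to 105.7 TPM (median 2.85) and from 0 to 434.6 TPM (median 31.2), with a difference of 2.18 (SE 1.02). Hist1h1b was listed at 0 in 4 of 7 IgG2a spleens, reached 14.9 TPM in the others, and lay between 1.82 and 33.1 TPM (median 8.19) in the 8 treated spleens, with a difference of 1.80 (SE 0.87). The groups overlap in all 3 genes. The call of Hist1h2ab was lost in 9 of 15 and that of Hist1h1b in 8 of 15 fits that left out 1 library. With the wider filter Hist1h2bg and Hist1h2bn, both low H2B genes, were past the threshold and Hist1h2ab was not.

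Hist1h2ap gave 225 to 4237 TPM (median 840) in IgG2a spleens and 66.4 to 9704 TPM (median 864) in treated spleens, a log2 difference of 0.09 (SE 0.83). Hist2h3b gave 6.33 to 313 TPM (median 93.6) and 1.95 to 663 TPM (median 98.5), a difference of 0.07 (SE 0.88). These intervals are wide, and differences of more than 2-fold in either direction lie within 2 SE. The highest value of both genes was that of the treated spleen 73_a.

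**Figure D4:**
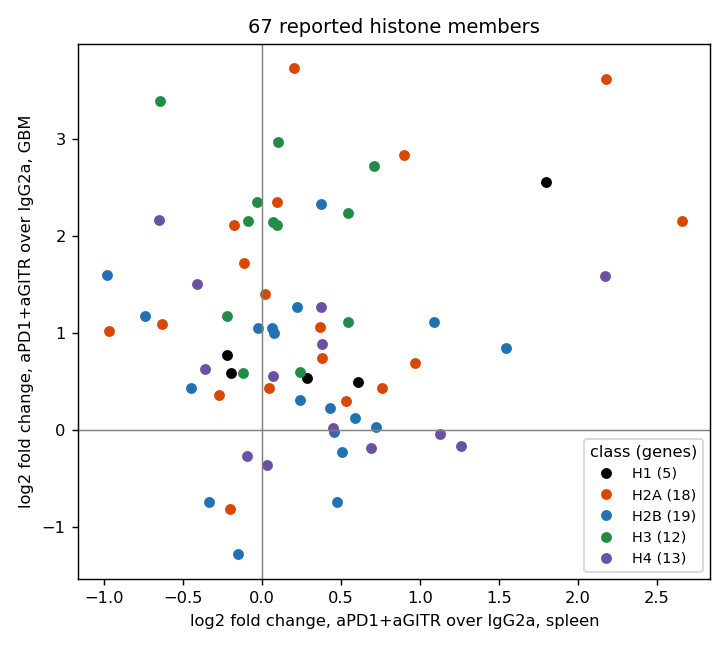
Log2 fold change of each of 67 reported members after αPD1 + αGITR, in splenic Treg cells (horizontal) and in GBM Treg cells (vertical), coloured by histone class. In GBM 56 of 67 members are above 0, the 12 H3 genes among them, and in spleen 44 of 67 are.

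Whether the response to treatment differed between tissues was tested by an interaction over all 4 groups, treating each spleen library as separate. The main fit tested 39 members and found 3 with a larger difference in GBM and 0 with a smaller one, where 6.8% of 8687 features had a larger and 5.35% a smaller difference. They were Hist1h3h (4.04 on the log2 scale, SE 1.48, adjusted p = 0.317), Hist1h4i (2.82, SE 1.26, adjusted p = 0.37) and Hist1h2ah (adjusted p = 0.314), for which no fold is given because 1 group is listed at 0. For Hist1h4i the call was lost in 5 of 27 fits that left out 1 library. Without the treated spleen 73_a, 6 of 39 members were called, where 8.29% of 8744 features were higher. The interaction of Hist1h2ap was 2.26 (SE 1.26, adjusted p = 0.478), not past the threshold.

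Between tissues, IgG2a libraries differed in few members, with the same limit on the spleens. At the DEG threshold 0 of 67 members were higher in GBM than in spleen and 2 were lower, where 2.98% of features were higher and 1.17% lower. In the main fit, with 30 members tested, 0 were higher and 1, Hist1h2ah, was lower (background 7.63% and 2.3%). Hist1h2ah passed the filter on means only through the spleens (mean 12.8 TPM), where it is high, so its call is a description. No member passed the adjusted threshold, which 0.569% of 7380 features did, although with library weights 5 of 30 members and 262 of 7380 features did. The second lower member with the wider filter was Hist3h2ba, with 0 to 59.5 TPM in spleens and 0 to 3.28 TPM in GBM. The count of lower members was 0 without the spleen with 16119 features above 1 TPM, where Hist1h2ah no longer passed the filter and was not tested, and 3 without the spleen 79_d, and 2 members were higher without the spleen 79_b or the low-feature GBM library. Hist1h2ap differed by -0.14 (SE 0.95) and Hist2h3b by -0.08 (SE 0.92). Without the low-feature library these differences were 1.02 and 0.75, and they were not past the threshold either.

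GBM and splenic Treg cells were also compared after αPD1 + αGITR, again with spleens that may share animals. With the wider filter 15 of 67 members were higher in GBM and 1 lower, where 10.9% of features were higher and 3.96% lower. The members' median log2 difference was 0.80, against -0.05 over all features. In the main fit 34 members were tested, of which 16 were higher and 1 lower, but 33.9% of 7506 features were higher and 6.31% lower in that fit. The adjusted threshold was passed by 7 of 34 members in the main fit, close to the 17.5% of features that passed, and by Hist1h3h alone with the wider filter, where 1.38% did. The count of 7 was 2 when any of 7 single libraries was left out (treated spleens 70_a and 72_b, treated GBM 70_a, 72_a, 73_a, 74_a and 80_a), where at most 937 features passed in place of 1310. It was 14 of 33 without the treated spleen 73_a, where 2279 of 7570 features passed. It was also 2 with the libraries of a label number averaged or used as a replicate block, where 263 and 495 features passed, and it was 15 of 34 with library weights, where 2123 of 7506 features passed. This comparison shares the treated GBM libraries with the comparison of treatments, so the overlap of their members is not a separate result.

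The 7 members were Hist1h3h, Hist1h2ai, Hist1h3b, Hist1h4i, Hist1h2ap, Hist1h2bj and Hist1h3i, which fall in the H2A, H2B, H3 and H4 classes. Hist1h3h ranged from 0 to 75.6 TPM (median 1.55) in treated spleens and from 22.4 to 156.5 TPM in treated GBM, a log2 difference of 4.01 (SE 0.83, adjusted p = 0.0037). Hist1h2ai ranged from 0 to 40.0 TPM (median 1.45) and from 6.07 to 96.4 TPM (median 41.3), a difference of 3.18 (SE 0.84, adjusted p = 0.0163). This gene passed the filter on means only through treated GBM, where it is high, and its adjusted p with the wider filter was 0.0778. Hist1h4i ranged from 0 to 99.6 TPM (median 4.57) and from 10.9 to 79.7 TPM, a difference of 2.71 (SE 0.87, adjusted p = 0.0357). Hist1h2ap differed by 2.12 (SE 0.68, adjusted p = 0.0372). The groups overlap in each of these genes, and in all 7 the treated spleen 73_a lay among the treated GBM libraries or above them.

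Hist4h4, a lone H4 gene on chromosome 6 (136801553 to 136804415), was the member lower in GBM. It ranged from 1.29 to 52.2 TPM (median 5.51) in treated spleens and from 0.38 to 4.57 TPM (median 1.05) in treated GBM, a log2 difference of -1.56 (SE 0.70, adjusted p = 0.101). The gene passed the filter on means only through the treated spleen 72_b, without which it was not tested. Its call was lost when any of 6 other single libraries was left out (treated spleen 74_a, treated GBM 70_a, 72_a, 73_a, 73_b and 74_a). Hist4h4 has a long annotated transcript, 91.5% of whose 50-base stretches are its own, and holds AATAAA after the stop codon.

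Genes that serve histone production and DNA replication were examined from lists. Of 38 S phase and replication genes, 30 were tested in GBM after treatment and 12 were higher, 0 lower, where 16.8% of all features were higher and 4.87% lower, with a median log2 difference of 1.29 against 0.62 over all tested features. They included the kinase gene Cdk1 (2.47), the ribonucleotide reductase subunit Rrm2 (2.25), the helicase subunits Mcm3 (2.22) and Mcm7 (1.63), the proliferation marker Mki67 (1.78) and the topoisomerase Top2a (1.66). The count depended on the same IgG2a libraries as the members did, in fits added after seeing the data. It was 4 of 30 without the low-feature library, where 10.9% of all features were higher, and 1 of 30 (Tyms) without that and the macrophage-rich library, where 11.6% were. In the latter fit the differences were 0.10 for Mcm3, 1.08 for Cdk1, 0.25 for Rrm2, 0.55 for Mcm7, 1.09 for Mki67 and 0.89 for Top2a. None of these was past the threshold, nor was Pcna (0.62), another gene of the list. The list's median was 0.43 against 0.52 over all features. Their summed level ranged from 199.9 to 2378 TPM (median 440) in IgG2a spleens, from 253 to 2380 TPM (median 754) in treated spleens and from 715 to 2119 TPM (median 1830) in treated GBM. The 5 IgG2a GBM libraries summed to 274, 823, 1084, 1404 and 1527 TPM. The treated spleen 73_a, with the highest histone sum and the high erythroid sum, also had the highest S phase sum among all libraries. The IgG2a spleen 79_b was close to it with 2378 TPM of S phase genes but held 5255 TPM of histone members. The treated GBM library 73_a held 2119 TPM of S phase genes, the most in GBM, and 4167 TPM of histone members. The low-feature GBM library was low in both, but the IgG2a spleen 79_a had the lowest S phase sum. Whether the sums go together was not tested. In the spleen 1 of 26 tested genes of this list was higher after treatment (Ccna2), against 1.49% of all features, and 2 of 25 were higher in IgG2a GBM than in IgG2a spleen (Mcm5 and Mcm6), against 7.63%.

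**Figure D5:**
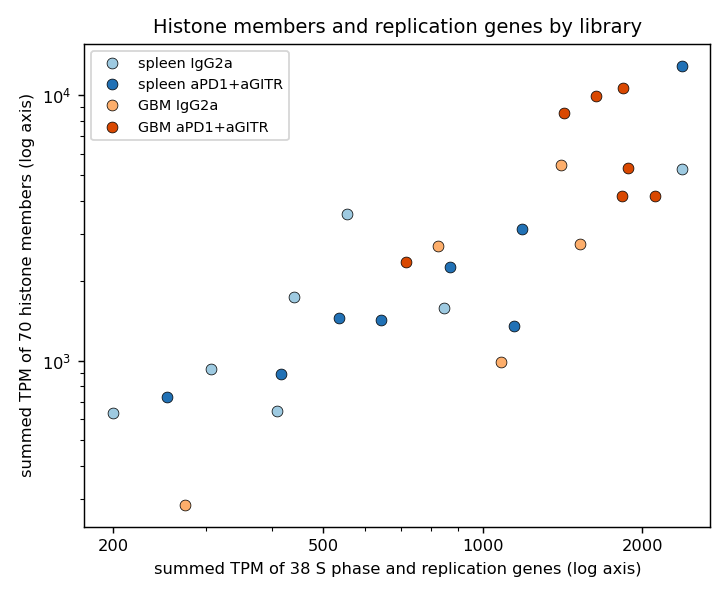
Summed TPM of the 70 histone members (vertical, log axis) against the summed TPM of 38 S phase and replication genes (horizontal, log axis), 1 point per library, coloured by group. The treated spleen at 12879 TPM of histone members also has 2380 TPM of S phase genes, and the IgG2a GBM library at 286 TPM has 274 TPM. An IgG2a spleen at 5255 TPM of histone members has 2378 TPM of S phase genes.

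Slbp, which binds the stem-loop, was past the threshold in GBM after treatment. The IgG2a libraries held 3.07, 16.5, 35.2, 37.5 and 59.2 TPM and the treated libraries from 51.7 to 141.0 TPM (median 80.6), a log2 difference of 1.85 (SE 0.60, adjusted p = 0.122). The lowest IgG2a values were those of the macrophage-rich and low-feature libraries, and without both the difference was 0.90, under the 2-fold threshold. Of the 29 genes for histone mRNA transcription and 3′ end processing, 22 were tested in GBM and 6 were higher, 0 lower (Slbp, the cleavage factors Cpsf2, Cstf1 and Cstf3, and the snRNP proteins Snrpf and Snrpg), where 16.8% of all features were higher. Without the low-feature and macrophage-rich libraries 2 of 22 were higher (Cstf3 and Ncbp2), against 11.6% of all features. The cleavage and snRNP genes also act on other mRNAs. Npat, the coactivator of histone genes, was low, with a median of 0.46 TPM after IgG2a and 1.90 TPM after treatment in GBM. In the spleen 1 of 20 tested genes was higher (Casp8ap2) and 0 lower, against 1.49% and 1.04% of all features. In IgG2a libraries 0 of 21 were past the threshold between tissues, against 7.63% higher and 2.3% lower, and in treated libraries 9 of 22 were higher in GBM, where 33.9% of all features were.

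Histone chaperones deliver the proteins to DNA. In GBM 2 of 23 tested genes of this list were higher after treatment, Chaf1a (2.11) and Chaf1b (1.98), which encode subunits of the chromatin assembly factor CAF-1, where 16.8% of all features were higher. Without the low-feature and macrophage-rich libraries their differences were 0.78 and 0.39, not past the threshold. In that fit 2 of 23 genes of the list were higher, Rbbp4 (1.065) and Cabin1 (1.014), where 11.6% of all features were. In the spleen Chaf1b fell by 1.89, the only called gene of 21 tested, where 1.04% of all features were lower. Its interaction was 3.87 (SE 1.26, adjusted p = 0.314). In treated libraries 7 of 24 genes were higher in GBM than in spleen, where 33.9% of all features were, and in IgG2a libraries 1 of 22 was (Nasp), where 7.63% were. Both counts lie near the shares of all features. Histone variant genes, of which most are also made outside S phase and carry ordinary poly(A) tails (H2afx has mRNAs of both kinds), gave 3 higher of 9 tested in GBM after treatment, where 16.8% of all features were higher: the linker H1f0 (1.82), the centromeric H3 variant Cenpa (2.11) and H2afv (1.10). Without the low-feature and macrophage-rich libraries 2 of 9 were higher, H2afv (1.14) and H1f0 (1.00), and Cenpa (0.97) missed the threshold. The abundant H2afz had a difference of 0.57 (SE 0.40) and H3f3b one of 0.49 (SE 0.44), neither past the threshold. In the spleen 0 of 9 were past the threshold, against 1.49% of all features higher and 1.04% lower, a rate at which 9 genes show little. In IgG2a libraries 1 of 9 was higher in GBM (H1f0), against 7.63% of all features, and in treated libraries 6 of 9 were, against 33.9% of all features.

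RNAs that also lack an ordinary poly(A) tail were listed beside the histone genes. Of 12 listed, 3 were tested in GBM after treatment and none was past the threshold, where 16.8% of all features were higher and 4.87% lower. Their median log2 difference was -0.04, against 0.62 over all features, and it was 0.37 against 0.52 without the low-feature and macrophage-rich libraries. With 3 genes tested, the list shows little either way. Their summed level had medians of 380, 487, 1201 and 838 TPM in IgG2a spleen, treated spleen, IgG2a GBM and treated GBM, most of it Malat1. The part of RNA capture in the histone results was not tested.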

How the data were processed

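RNA was amplified by Smart-Seq2 and sequenced on a NextSeq500. According to the study's methods, the authors used Tophat for alignment to mm10 and RSEM for TPM (versions and annotation not given in the sources used here); the submitters' processing notes also name bcl2fastq and TopHat2. The authors deposited TPM plus 1 for 53801 features, a unit other than counts; 1 was subtracted. Of 28 described libraries 27 were used: 1 column has no name and was not assigned. Groups follow the labels.

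Limma 3.58.1 (R 4.3.3, trend) was run on log2(TPM + 1) for each pair of groups, with features of mean TPM above 10 in a compared group, or above 1 TPM in at least 3 libraries; p-values were Benjamini-Hochberg adjusted over all features tested. Exact permutation tests were two-sided. A fold change on this scale understates that of low genes. Scripts were tested on simulated data. Named members were the 4 most abundant of each class and, per comparison and direction, up to 5 past the threshold with the lowest p; others are named where a count of 5 or fewer or a group difference concerns them, chosen after their values were seen. Members, lists and tests were chosen with earlier results of these data known. Sequences came from GENCODE M21 and RefSeq (GRCm38.p6). GBM and spleen libraries with the same label number had correlations of -0.159 to 0.182 in their deviations from the group means, and not all were over 0.1; libraries of 1 tissue that share a number were not checked. The labels do not say which libraries share a mouse, and spleen libraries outnumber the animals named by the study. P-values therefore measure the spread between libraries and may be too small for spleens. The same holds for treated GBM if libraries 70_a and 70_b, or 73_a and 73_b, share a mouse.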

Additional observations from a re-analysis of the deposited data

Results flagged for a closer look

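In Hist1h1a, a linker gene, 1 IgG2a GBM library (76_a) held 4.89 TPM and the other 4 held 0, and 1 treated spleen (80_a) held 4.88 TPM, each far from the rest of its group. Hist1h1c stood out in the treated GBM library 73_a with 32.8 TPM, the library of its group with the highest macrophage sum. Hist2h3b was at 1.95 TPM in the treated spleen 72_b, the lowest of its group. The summed level of H1 genes was 1.95 TPM in the IgG2a spleen 79_a, below the other 6. In total 5 of 104 groups of values tested were marked in this way, where chance marks about 1 in 20.

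The difference made by treatment was larger in GBM than in spleen by an interaction test for Hist1h3h (4.04 on the log2 scale), Hist1h4i (2.82) and Hist1h2ah (3.53 as fitted on log2(TPM + 1), which depends on the added 1 and is no fold). None passed the adjusted threshold, and these 3 of 39 tested members are near the 6.8% of all features called. The call of Hist1h4i was lost in 5 of 27 fits that left out 1 library.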

How the results depend on the processing

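Counts of members past the DEG threshold are given as higher and lower. For IgG2a GBM against spleen, 0 and 1 in the main fit, the lower count was 2 with a pseudocount of 0.1, with the wider filter, with no filter, with TMM-type factors and with the replicate block, 3 with quantile normalization, without the 10 most abundant features and with libraries of the same label number averaged, and 0 with a pseudocount of 10; in these fits 109 to 489 features were lower (170 in the main fit). The higher count was 1 with a pseudocount of 10, 3 with all 4 groups in 1 fit and 9 with library weights (then 3 lower), where 7.29%, 11.5% and 12.9% of features were higher (7.63% in the main fit). Leaving out 1 library gave 0 to 2 higher and 0 to 3 lower, with 422 to 796 features higher and 110 to 256 lower. Library weights also turned the difference of Hist1h2ap from -0.14 to 1.51. For treated GBM against spleen, 16 and 1 became 8 and 2 with quantile normalization (13% of features higher, 33.9% in the main fit). The lower count was 0 with a pseudocount of 10, label numbers averaged, library weights and the replicate block, where 212 to 377 features were lower (474 in the main fit). Leaving out 1 library gave 14 to 18 higher and 0 to 1 lower, where 28.5% to 37.4% of features were higher and 308 to 650 features lower. For treatment in GBM, 16 higher became 9 with library weights (12.3% of features, 16.8% in the main fit). It became 6 (11.6% of features) without 2 IgG2a libraries, that with the fewest features and 79_a, with most macrophage RNA. This alternative was chosen after seeing the data. Leaving out 1 library gave 13 to 16, where 10.9% to 20.9% of features were higher. For treatment in spleen, 3 became 1 with quantile normalization and TMM-type factors (1.57% and 1.01% of features, 1.49% in the main fit), and 1 to 4 with 1 library left out (1% to 2.43%). The interaction count of 3 was 1 with library weights (8.46% of features, 6.8% in the main fit) and 2 to 6 with 1 library left out (3.32% to 9.71%). The cause of these changes was not tested. Scaling moved the median difference of all features in GBM from 0.62 to 0.13 (quantile) and 0.34 (TMM-type); the members' median moved from 2.11 to 1.27 and 1.78. With library weights 5 members and 262 features passed the adjusted threshold for IgG2a GBM against spleen (0 and 42 in the main fit), 15 and 2123 for treated GBM against spleen (7 and 1310) and 2 and 263 for treatment in GBM (0 and 0). The replicate block pairs libraries whose labels share only a number and, for treated GBM against spleen, also took the members past the adjusted threshold from 7 to 2 and the features from 1310 to 495. Averaging libraries of a label number, which may share an animal, gave 2 members past it and 11 higher at the DEG threshold there, where 19.7% of features were higher. For treatment it gave 3 higher in the spleen (2.03% of features) and 17 higher in GBM (12.3% of features). Without counts, the depth behind a value of 0 is unknown, which limits all low members.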
